A study of Mus musculus with 24 samples.

Results

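The S100a genes of mouse chromosome 3 encode small calcium-binding proteins, and 10 of them were followed here in maps of accessible chromatin from blood cells: S100a1, S100a3, S100a4, S100a5, S100a6, S100a8, S100a9, S100a10, S100a11 and S100a13. The members were taken by name, and each was read over the annotated gene (GENCODE vM21, build mm10) plus flanks of 20 kb, out of 21911 protein-coding genes treated alike. These spans joined into 3 windows. The window of S100a1, S100a13, S100a3, S100a4, S100a5 and S100a6 ran over chr3:90491034-90644181 (153.1 kb), that of S100a8 and S100a9 over chr3:90648978-90715721 (66.7 kb), and that of S100a11 and S100a10 over chr3:93500488-93584643 (84.2 kb). Within them lay 78 of the 207525 elements of the genome, an element being a stretch of DNA where both libraries of at least 1 cell population had overlapping peaks. Spans of neighbouring members overlap, so the values of S100a3 to S100a6, of S100a1 and S100a13, and of S100a8 and S100a9 rest partly on the same peaks.

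ATAC-seq, in which the transposase Tn5 inserts adapters into open DNA, was carried out on 12 populations with 2 libraries each. From the bone marrow of adult C57BL6 mice came LSK (lineage-negative, Sca1-positive, Kit-positive stem and multipotent progenitor cells), CMP (common myeloid progenitors), GMP (granulocyte macrophage progenitors), MEP (megakaryocyte erythroid progenitors), CFUE (colony forming unit erythroid cells), ERY (erythroblasts), CFUMK (colony forming unit megakaryocyte cells) and iMK (immature megakaryocytes). Peripheral blood of such mice gave MON (monocytes) and NEU (neutrophils). G1E is an immortalized erythroid progenitor line that lacks GATA1, and G1E-ER4+E2 is a single clone of it in which a GATA1 protein fused to the estrogen receptor is switched on with estradiol. Per the study's methods, replicate cells came either from other mice sorted on another day or from a further portion of the same sort handled on its own. Which of these holds for a given population was not settled here, and the p-values therefore cover the spread between libraries, which may be technical.

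S100 proteins carry EF-hand calcium sites, work mostly as dimers and, on binding calcium, open a surface that grips target proteins. S100a8 and S100a9 pair to form calprotectin, which fills the cytoplasm of neutrophils and is plentiful in monocytes, where it binds zinc and manganese away from microbes and, once released, acts on TLR4. S100a10 holds annexin A2 in a tetramer at the membrane, S100a11 binds annexin A1, S100a4 binds non-muscle myosin, and S100a6 (calcyclin) binds the calcyclin-binding protein. S100a1 is known from striated muscle, S100a13 from the export of FGF1 and interleukin 1 alpha, S100a3 from the hair cuticle and S100a5 from olfactory neurons.

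The peak lists held between 84341 and 230877 peaks in the 20 primary libraries and between 52720 and 70306 in the 4 of the lines, and longer lists held more weak peaks. Peak scores had no stated unit, so the rank of a score within its own list is given as a percentile, and peak numbers are given per 100000 peaks of the list. Because a longer list puts the same place from the top at a higher percentile, percentiles of different libraries are compared only where the gap is wide, and the rank counted from the top of the list is given beside them where it bears on an order. A promoter counted as called if any peak of the library came within 500 bp of an annotated start. Of 15 granulocyte marker genes, 14 promoters were called in LSK replicate 1 and 7 in LSK replicate 2, 15 and 14 in GMP, 14 and 12 in CFUMK, 14 in both iMK libraries, but 7 and 8 in NEU, where those of Elane, Ctsg, Ltf, Camp, Ngp, Lcn2 and Fcnb were not called. All 12 B cell markers were called in both NEU libraries and at most 8 in any other library. Of 15 megakaryocyte markers, 6 and 9 were called in iMK, while iMK had all 14 monocyte markers. Promoters of several granule genes were thus not called in NEU, and iMK had promoters of other lineages beside those of its own. Populations were measured in bulk, so a site open in fewer cells and a site less open in every cell cannot be told apart. The part of these markers in the results on S100a genes was not tested.

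The sequences around the calprotectin genes and at the elements that set the populations apart are given here, so that the values can be read against them. All are plus-strand sequence of GRCm38 (mm10) from the RefSeq assembly except that upstream of S100a9, which is on the minus strand as the gene is. Capitals mark the letters of 7 motifs on either strand: TTGCNNAA for CEBP, AGGAAGT for PU.1, AGATAA or TGATAA for GATA, the letters TGTGGT for RUNX, TGANTCA for AP-1, CCNCNCCC for KLF/SP and AGGGGGC for CTCF. Sites of KLF/SP and CTCF can share bases in GC-rich sequence, and a match is a description of letters, not of a bound factor. The first pair are the 250 bases before the outermost starts of S100a8 (chr3:90668728-90668977) and S100a9 (chr3:90695722-90695971), genes that point toward each other.
S100a8 upstream: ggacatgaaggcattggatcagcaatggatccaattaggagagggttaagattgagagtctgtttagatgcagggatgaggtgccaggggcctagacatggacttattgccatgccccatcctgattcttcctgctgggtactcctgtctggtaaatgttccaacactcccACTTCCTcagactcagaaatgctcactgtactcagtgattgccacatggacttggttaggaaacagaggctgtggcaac
S100a9 upstream: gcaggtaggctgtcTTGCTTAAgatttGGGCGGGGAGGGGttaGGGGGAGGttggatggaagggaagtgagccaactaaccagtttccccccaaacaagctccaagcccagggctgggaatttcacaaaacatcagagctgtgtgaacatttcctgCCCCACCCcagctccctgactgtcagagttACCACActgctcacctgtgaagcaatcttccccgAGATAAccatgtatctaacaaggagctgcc
The S100a8 stretch held 1 PU.1 match, 79 bases before the start, where PU.1 is a factor of granulocytes, monocytes and B cells. That of S100a9 held a CEBP match, the letters of the granulocyte factors CEBPA and CEBPE, 236 bases before the start, 4 KLF/SP matches, of which the first 2 overlap, a RUNX match and a GATA match. Of 32807 promoters of the same length in RefSeq, 9.6% held the CEBP letters, 7.7% those of PU.1, 14% RUNX, 16.6% GATA and 45.9% KLF/SP.

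The next pair are the strongest peaks of 2 elements picked after their values were seen, each with high percentiles in some populations and no peak in others. The first lies 14.3 kb upstream of S100a11 (chr3:93506109-93506258, intergenic), and the second between S100a8 and S100a9, 8.7 kb downstream of the S100a9 start (chr3:90686975-90687124, intergenic).
S100a11 upstream element: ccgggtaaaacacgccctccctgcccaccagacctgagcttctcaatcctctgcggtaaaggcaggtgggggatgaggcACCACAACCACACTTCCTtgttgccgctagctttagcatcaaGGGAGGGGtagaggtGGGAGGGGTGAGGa
S100a8 to S100a9 element: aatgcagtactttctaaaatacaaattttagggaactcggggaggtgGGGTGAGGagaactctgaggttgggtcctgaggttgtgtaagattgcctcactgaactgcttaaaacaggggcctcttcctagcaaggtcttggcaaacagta
The printed peak upstream of S100a11 held 2 adjoining RUNX matches, the second of which shares a base with a PU.1 match, and 3 KLF/SP matches, of which the last 2 overlap. The printed peak between the calprotectin genes held 1 KLF/SP match. The sequences are shorter than the elements, and matches outside the printed bases are not counted in these sentences.

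The remaining 6 elements were picked by rule, as the 2 of highest score percentile in each of 3 pattern classes, among elements that overlap no annotated UTR. For elements of all 10 primary populations they lie 14.3 kb upstream of S100a9 (chr3:90710192-90710341) and 11.1 kb downstream of the S100a13 start (chr3:90525533-90525682).
S100a9 upstream, all primary populations: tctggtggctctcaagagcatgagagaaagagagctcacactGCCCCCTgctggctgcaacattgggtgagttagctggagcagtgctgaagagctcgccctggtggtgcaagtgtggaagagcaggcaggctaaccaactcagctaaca
S100a13 downstream, all primary populations: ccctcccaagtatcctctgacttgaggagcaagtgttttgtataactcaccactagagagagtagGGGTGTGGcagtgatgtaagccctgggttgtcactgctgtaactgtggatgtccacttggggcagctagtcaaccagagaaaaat
The printed peak upstream of S100a9 held 1 CTCF match, CTCF being a DNA-binding protein found at domain borders, and that downstream of S100a13 held 1 KLF/SP match. For elements called in CFUE or ERY alone they lie 26.5 kb downstream of the S100a6 start (chr3:90640187-90640336) and 0.8 kb before an internal start of S100a3 (chr3:90586311-90586460). The S100a3 element had score percentiles of 44.1 and 30.4 in ERY and 37.1 in CFUE replicate 1. MON replicate 1 had a higher one, 61.4, and MON replicate 2 no peak, so the element is erythroid only by calls in both libraries.
S100a6 downstream, erythroid: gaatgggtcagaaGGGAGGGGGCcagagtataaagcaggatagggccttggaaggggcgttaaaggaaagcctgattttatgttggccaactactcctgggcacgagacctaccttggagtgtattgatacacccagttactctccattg
S100a3 internal, erythroid: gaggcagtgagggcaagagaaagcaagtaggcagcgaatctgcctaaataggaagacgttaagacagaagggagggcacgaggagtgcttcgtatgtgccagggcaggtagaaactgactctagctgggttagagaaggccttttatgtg
The printed peak downstream of S100a6 held a KLF/SP and a CTCF match that overlap, and that within S100a3 held no match. The printed S100a3 peak, of ERY replicate 1, runs past the end of its element (chr3:90585947-90586368). The part of that element outside the printed bases held 1 PU.1 and 1 KLF/SP match. Neither element had a GATA match over its whole width. For elements of MON or NEU shared with GMP or iMK alone they lie 15.5 kb upstream of S100a11 (chr3:93504918-93505067) and 12.9 kb downstream of the S100a9 start (chr3:90682701-90682850).
S100a11 far upstream, iMK and NEU: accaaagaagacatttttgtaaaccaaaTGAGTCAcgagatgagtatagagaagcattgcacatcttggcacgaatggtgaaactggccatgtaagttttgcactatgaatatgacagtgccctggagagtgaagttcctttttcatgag
S100a8 to S100a9 element, iMK and NEU: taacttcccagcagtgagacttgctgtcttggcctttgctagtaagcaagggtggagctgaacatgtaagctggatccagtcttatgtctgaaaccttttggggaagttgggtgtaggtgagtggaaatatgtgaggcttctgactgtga
The printed peak upstream of S100a11 held 1 AP-1 match, the letters of FOS and JUN dimers. The other printed peak held none of the 7 motifs, while the whole element around it had 2 CEBP matches and 1 AP-1 match.

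Along the windows, MON and NEU had more elements than CFUE and ERY did. MON had 33 of the 78 elements (42.3%, against 25.2% of all elements of the genome) and NEU 34 (43.6% against 20.9%), while CFUE had 11 (14.1% against 19.7%) and ERY 18 (23.1% against 20%). CFUMK had 54 (69.2% against 59.5%), GMP 52 (66.7% against 54.9%), iMK 48 (61.5% against 47.1%) and MEP 34 (43.6% against 36.6%). The shares of CMP, with 44 (56.4% against 52%), and LSK, with 29 (37.2% against 33.3%), were near their backgrounds. In the lines, G1E had 3 elements (3.8% against 13.4%) and G1E-ER4+E2 had 8 (10.3% against 16.3%). Elements of MON or NEU that neither CFUE nor ERY had numbered 30, or 38.5% of the windows, beside 18.8% of elements genome-wide. Those of CFUE or ERY that neither MON nor NEU had numbered 6, or 7.7% beside 12.1%. Elements of all 10 primary populations numbered 7, or 9.0% beside 7.48%, a share near the background. A further near-background share was that of elements called in GMP and iMK and in none of MEP, CFUE and ERY, with 15 (19.2% beside 19.1%). These shares were not tested.

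The windows differed in this respect. In the window of S100a1 to S100a6, 10 of 37 elements were of MON or NEU without CFUE or ERY, 5 were of CFUE or ERY alone among these 4 populations, and 6 were called in all 10 primary populations, of which 1 lay at the start of Snapin and 1 at that of Chtop, neighbouring genes that are not members. In the window of S100a8 and S100a9, 9 of 18 were of MON or NEU without CFUE or ERY, none had the opposite pattern, and 1 was in all 10. In the window of S100a11 and S100a10 the numbers were 11, 1 and 0 of 23. Of all 78 elements, 41 were intergenic, 19 intronic and 18 overlapped an exon, and 44 lay over 1 kb from any coding gene's start. Distal elements made up 14 of 18 around S100a8 and S100a9, 16 of 23 around S100a11 and S100a10, and 14 of 37 around S100a1 to S100a6.

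**Figure D1:**
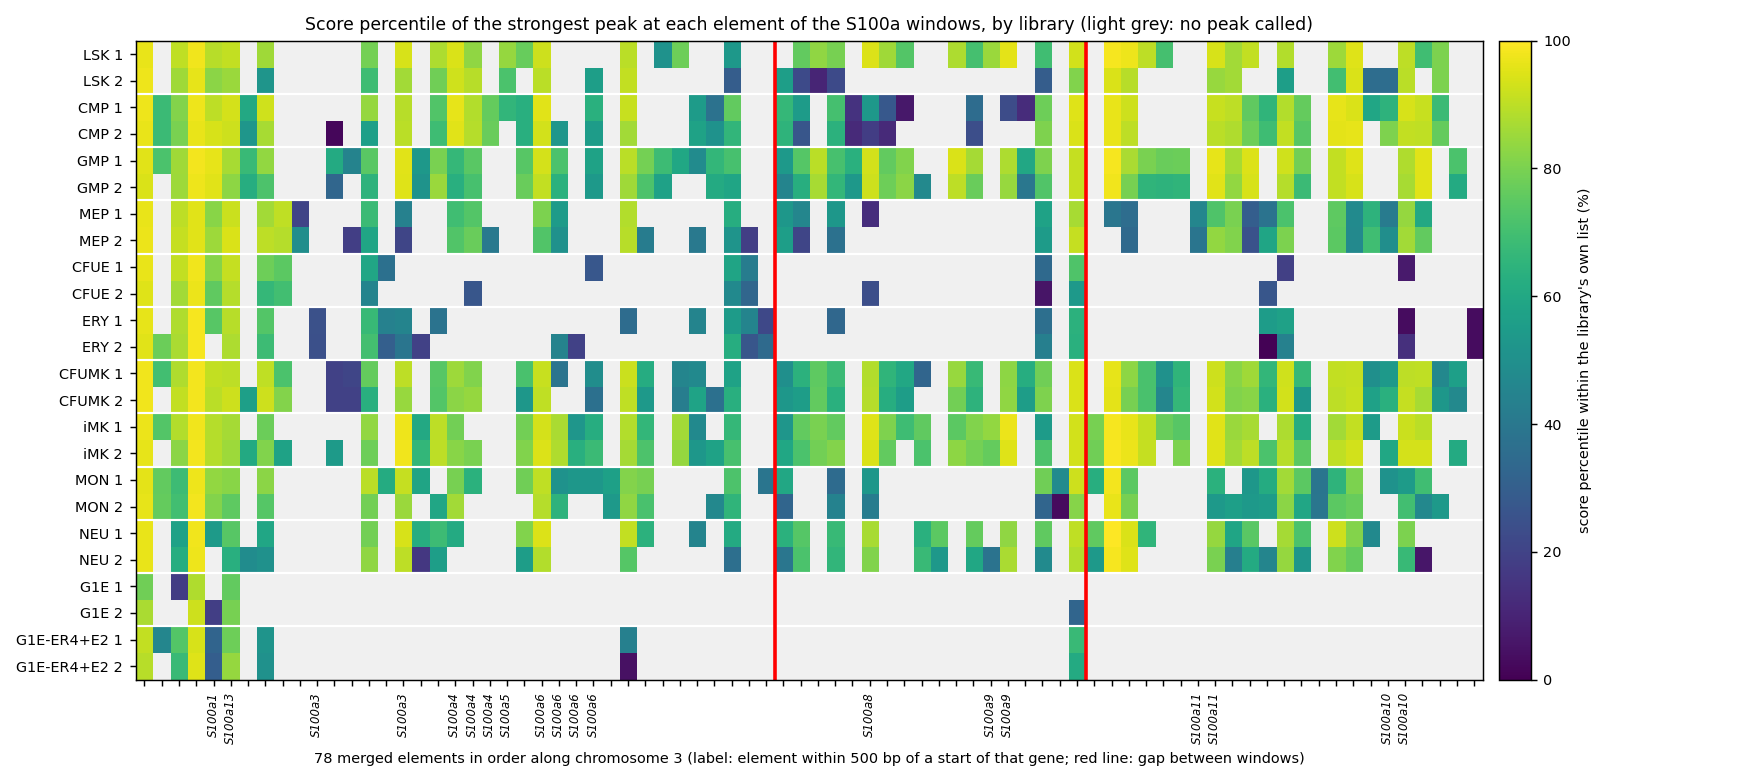
Each column is 1 of the 78 elements in chromosome order and each row 1 of the 24 libraries, coloured by the score percentile of the strongest peak in that library's list, with light grey for no peak and red lines between the windows. CFUE, ERY and the lines are mostly empty in the windows of S100a8 and S100a9 and of S100a11 and S100a10, where CFUE had 1 and 0 elements and ERY 2 and 4.

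S100a1 and S100a13 start 43 bp apart on opposite strands (chr3:90514392 and chr3:90514435) and share an accessible promoter in all 24 libraries, as 37.5% of genes had. Its score percentile was 90.9 and 85.0 in LSK, 93.4 and 94.0 in CMP, 96.1 and 95.5 in GMP, and 91.9 and 94.2 in MEP. In the erythroid and megakaryocytic populations CFUE stood at 91.1 and 89.0, ERY at 89.1 and 87.8, CFUMK at 90.9 and 92.3 and iMK at 88.9 and 89.0. It was at 83.6 and 81.4 in MON, 73.9 and 62.9 in NEU, 76.1 and 79.3 in G1E and 77.9 and 84.3 in G1E-ER4+E2. Counted from the top of the list, the S100a1 promoter ranked at 26834 and 24250 in MON and 28318 and 31297 in NEU, below its ranks of 7804 to 21564 in the other 20 libraries, those of the lines included. It was thus open in erythroid cells as in the other populations, and in the lines it was the only member promoter called. In the span of S100a1 each primary library had between 6 and 12 peaks, with 10 and 11 in CFUE against 6 and 7 in NEU. An element 4.7 kb downstream of the S100a1 start, which lies 71 bp from the start of Chtop and is that gene's promoter by position, had percentiles from 95.4 to 98.7 in the 20 primary libraries and from 88.2 to 95.3 in the lines.

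S100a3, S100a4, S100a5 and S100a6 lie side by side on the plus strand, and their starts differed in use. The outermost start of S100a3 (chr3:90560578) had a peak in both ERY libraries alone, at percentiles of 24.7 and 24.6, while an internal start (chr3:90586952) was the accessible one. That internal start had percentiles of 94.0 and 86.2 in LSK, 89.2 and 89.7 in CMP, 95.5 and 95.2 in GMP, 97.5 and 97.9 in iMK, 90.0 and 84.6 in CFUMK, 91.4 and 85.1 in MON and 93.9 and 90.0 in NEU. It was at 43.8 and 21.0 in MEP and 45.0 and 39.0 in ERY, and no peak was called there in CFUE or the lines. The libraries thus separate into a high set and a low set without overlap, with MEP beside ERY.

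At the outermost start of S100a4 (chr3:90603771), whose product binds non-muscle myosin, the order was another. The percentiles were highest in CMP (96.3 and 95.6) and LSK (94.5 and 92.7), then 85.2 and 82.7 in CFUMK, 79.3 and 86.0 in MON, 78.9 and 82.1 in iMK, 69.2 and 72.9 in MEP and 66.6 and 63.1 in GMP. NEU had 61.1 in replicate 1 and no peak in replicate 2, and CFUE, ERY and the lines had none. CFUMK overlaps MON and cannot be ordered against it, whereas both GMP libraries lay under both of CMP. Counted from the top of the list, the strongest peak at any S100a4 start ranked at 36367 and 35082 in iMK. Both lay under MON, at 33944 and 18302, although the percentiles of iMK and MON overlap. NEU replicate 1, at 42261, ranked above GMP, at 59035 and 50449, so ranks and percentiles order these populations differently. The promoter of S100a5 was called in 3 libraries alone, LSK (84.2 and 71.8) and CMP replicate 1 (65.9).

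The S100a6 promoter had percentiles of 92.3 and 89.5 in LSK, 95.5 and 93.1 in CMP, 93.7 and 91.0 in GMP, 91.6 and 90.4 in CFUMK and 93.4 and 94.9 in iMK. It was at 90.6 and 88.7 in MON, 94.6 and 88.5 in NEU and 80.3 and 72.9 in MEP. CFUE had a peak at 34.1 in replicate 1 and ERY at 44.6 in replicate 2, and the lines had none. MEP lay under every library of the other 7 populations named and above the erythroid peaks.

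Erythroid libraries still had many peaks around these genes. In the span of S100a3, CFUE had 14 and 10 peaks and ERY 11 in both libraries, against 16 and 13 in MON, 11 and 10 in NEU and 20 and 17 in GMP. Taking the 52720 top-scoring peaks of each list, so that all lists were equally long, left 0 in both CFUE libraries and 1 in both of ERY, against 8 in both MON libraries, 9 and 8 in NEU and 6 and 8 in GMP. But for these, the erythroid peaks of the span lay outside the top 52720 of their lists. Not all were low in their lists. The intronic S100a3 element at chr3:90585525-90585935 stood at 59.2 and 45.0 in CFUE and at 67.2 and 70.0 in ERY. An element 26.5 kb downstream of the S100a6 start, printed above as erythroid, stood at the percentiles 41.8 and 33.2 for CFUE, 45.0 and 26.8 for ERY and 18.7 for MEP replicate 2, with no peak in any other library.

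**Figure D2:**
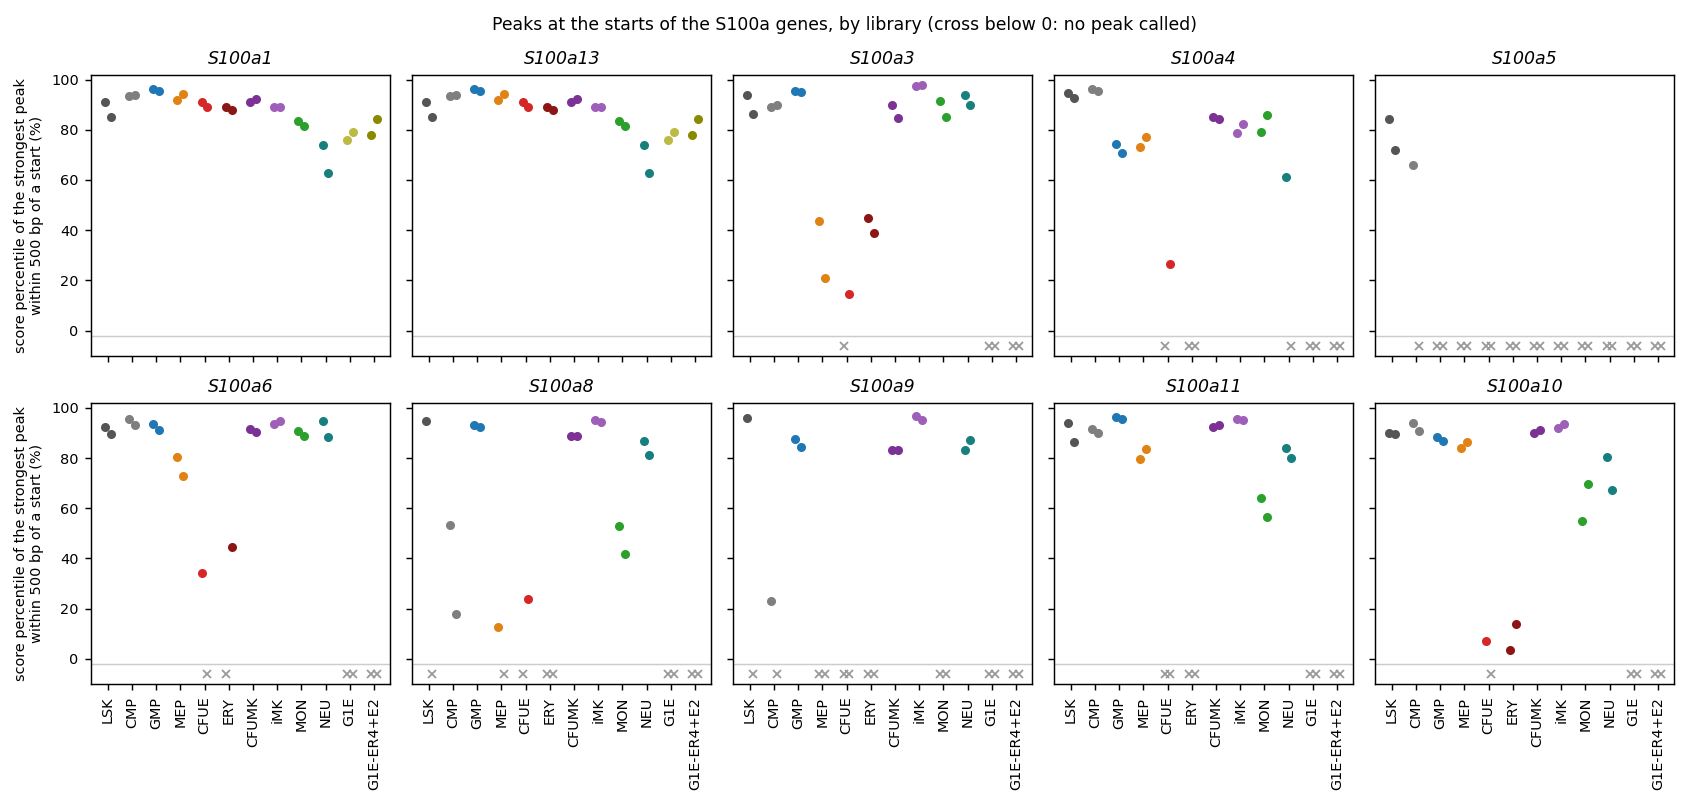
The score percentile of the strongest peak within 500 bp of a start is plotted for the 10 members, with a point for each library by population and a cross for no peak. S100a1 and S100a13 have a point in all 24 libraries, and S100a8, S100a9 and S100a11 have crosses in the 4 libraries of the lines.

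S100a8 and S100a9, the calprotectin pair, had promoters called in both libraries of GMP, iMK, CFUMK and NEU, in LSK replicate 1 and in CMP replicate 1. The S100a8 promoter was also called in both MON libraries, CMP replicate 2, MEP replicate 1 and CFUE replicate 2. The percentiles at the S100a8 promoter were 93.0 and 92.3 in GMP, 95.2 and 94.4 in iMK, 88.6 and 88.8 in CFUMK, and 86.8 and 81.1 in NEU. In MON it had 52.9 and 41.9, in CMP 53.5 and 18.0, in MEP 12.9 in replicate 1 and in CFUE 23.9 in replicate 2. ERY and the lines had no peak at it. Libraries of LSK disagreed, with 94.6 in replicate 1 and no peak in replicate 2. Counted from the top of the list, the S100a8 promoter ranked at 14349 and 15977 in NEU, far above 77088 and 75888 in MON. Ranks of 16218 and 13332 in GMP overlapped those of NEU, while iMK, at 8289 and 11015, lay above both.

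At the S100a9 promoter the percentiles were 87.7 and 84.5 in GMP, 96.9 and 95.1 in iMK, 83.0 and 83.3 in CFUMK, and 83.3 and 87.2 in NEU. LSK had 95.8 in replicate 1 and none in replicate 2, and CMP 23.2 in replicate 1 and none in replicate 2. No peak was called there in MEP, CFUE, ERY, MON or the lines. Counted from the top of the list, the S100a9 promoter ranked at 5293 and 9589 in iMK, 18188 and 10772 in NEU, 28408 and 26720 in GMP and 34376 and 32982 in CFUMK. Both iMK libraries thus lay above those of NEU, GMP and CFUMK by either measure. LSK replicate 1, at rank 8400, lay between the iMK libraries by either measure. S100a9 alone among the members had a promoter called in both NEU libraries and no MON library, a pattern of 1.11% of genes. With lists of equal length S100a8 and S100a11 also had it, and 1.83% of genes.

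The difference between the LSK libraries ran over this window. LSK replicate 1 had peaks at 12 of its 18 elements and replicate 2 at 6, and the promoters of S100a8 and S100a9 and the element 8.7 kb downstream of the S100a9 start were open in replicate 1 alone. Over all windows LSK had 29 elements with both libraries, 47 with replicate 1 alone and 34 with replicate 2 alone, where every peak of the remaining library counts. Replicate 1 had the longer list, with 200857 peaks against 135309, and the libraries are numbered 987 and 1196. It also had the more granulocyte (14 of 15, against 7), monocyte (13 of 14, against 8) and erythroid marker promoters (12 of 15, against 8). Megakaryocyte (12 against 10) and T and NK cell markers (7 against 6) went the same way. B cell (6 against 8) and stem and progenitor markers (14 against 15) went the other way. The part of list length and of these markers in the difference was not tested.

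Peaks in the span of S100a8 numbered 13 and 14 in GMP, 15 in both iMK libraries, 14 and 12 in CFUMK, 9 and 10 in NEU, 6 in both of MON and 11 and 7 in CMP. There were 15 and 5 in LSK, 6 and 4 in MEP, 1 in both CFUE libraries, 2 and 1 in ERY and 0 in all 4 of the lines. Per 100000 peaks this gave 10.07 ± 2.53 in NEU, 8.18 ± 0.76 in iMK, 6.87 ± 1.75 in GMP and 4.13 ± 0.66 in MON (SD, n = 2). Among the top 52720 peaks, MON, CMP, MEP, CFUE and ERY had 0, while NEU had 6 and 8, GMP 6 and 7, CFUMK 5 and 4, and iMK 13 and 8. The span of S100a9 had 11 and 14 peaks in NEU, 11 and 6 in MON, 11 and 12 in GMP, 15 and 12 in iMK, 8 and 3 in CFUE and 4 in both ERY libraries.

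Elements between and around the pair were shared by different sets of populations. The element 8.7 kb downstream of the S100a9 start, printed above, had percentiles of 94.3 and 90.1 in GMP, 84.5 and 78.9 in CFUMK, 74.9 and 83.0 in iMK and 87.6 in LSK replicate 1. Neither NEU nor MON had a peak there, although NEU had both promoters open. A like pattern held 9.3 kb upstream of S100a8, with 89.6 and 87.0 in GMP, 75 and 75.9 in CFUMK, 79.7 and 78.9 in iMK, 83.4 and 10.2 in LSK and none in MON or NEU.

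In the other direction, an element 11.6 kb downstream of the S100a9 start was called in NEU alone (74.7 and 53.2), and its neighbour 12.9 kb downstream of that start in iMK (75.6 and 71.6) and NEU (63.4 and 67.7), with single peaks at 47.2 in GMP replicate 2 and 32.5 in CFUMK replicate 1. MON alone had an element 13.6 kb upstream of S100a9, at 48.3 and 2.8. The element with the CTCF letters, 14.3 kb upstream of S100a9, had peaks in all 20 primary libraries, from 53.8 in CFUE replicate 2 to 95.0 in CMP replicate 1, and in 3 of the 4 line libraries (32.5 to 67.7). CFUE and ERY had 1 and 2 of the 18 elements of the window, this outer element among them.

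**Figure D3:**
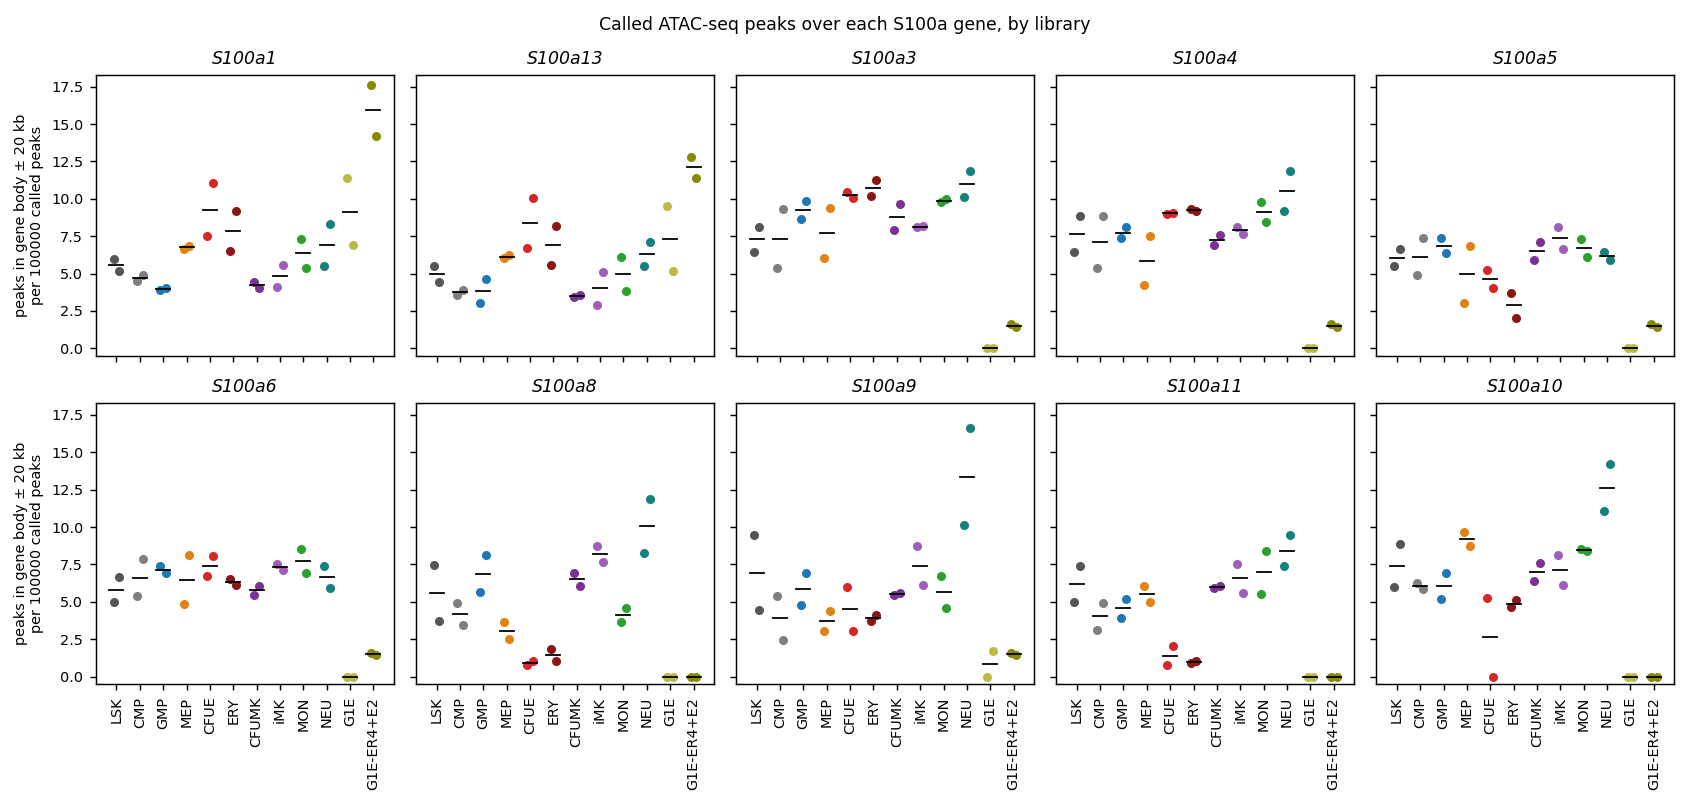
Peaks over each gene and its 20 kb flanks, per 100000 peaks of the library, are plotted by population for each member, with a point for each of the 24 libraries and a line for the mean of 2. S100a8 reaches 10.07 in NEU and is at 0 in both lines, and S100a11 reaches 8.42 in NEU and is at 0 in both lines.

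S100a11 and S100a10, whose products bind annexins, lie farther along the chromosome and were closed or nearly so in the erythroid populations but open in MEP. The S100a11 promoter had percentiles of 94.0 and 86.2 in LSK, 91.7 and 89.8 in CMP, 96.3 and 95.7 in GMP, 92.2 and 93.3 in CFUMK and 95.7 and 95.2 in iMK. It was at 79.8 and 83.7 in MEP, 84.0 and 79.9 in NEU and 64.0 and 56.6 in MON, and had no peak in CFUE, ERY or the lines. It alone among the members had a promoter in all 4 MON and NEU libraries and in no CFUE or ERY library, a pattern of 2.51% of genes. With lists of equal length S100a3 and S100a6 had this pattern and S100a11 did not, at 3.82% of genes.

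The S100a10 promoter had 90.0 and 89.7 in LSK, 93.8 and 90.8 in CMP, 88.2 and 86.9 in GMP, 84.0 and 86.2 in MEP, 90.0 and 91.1 in CFUMK and 91.9 and 93.4 in iMK. It was at 80.3 and 67.3 in NEU and 54.9 and 69.7 in MON. Counted from the top of the list, the S100a10 promoter ranked at 21355 and 27544 in NEU, which overlaps 27312 and 22680 in GMP, and at 73803 and 39534 in MON, below both. In the erythroid libraries a trace remained, at 7.3 in CFUE replicate 1 and 3.4 and 13.8 in ERY. The lines had none.

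The strongest element of the windows in NEU lay 14.3 kb upstream of S100a11, where the RUNX and PU.1 letters adjoin in the sequence printed above. Its percentiles were 99.7 and 98.5 in NEU, 98.2 and 96.5 in MON, 98.8 and 99.1 in iMK, 98.6 and 97.8 in GMP, 96.4 and 95.8 in CFUMK, 96.5 in both CMP libraries and 98.7 and 94.3 in LSK. MEP had 39.3 in replicate 1 and none in replicate 2, and CFUE, ERY and the lines had none. Next to it, 14 kb upstream, MEP had 35.6 and 34.0 where NEU had 94.4 and 95.3 and iMK 96.6 and 97.0. Another element of this kind lay 2.6 kb upstream of S100a10, with 47.7 and 47.1 in MEP, no peak in CFUE, ERY or the lines, and between 76.3 and 96.4 in the libraries of the other 7 populations. At these 3 elements MEP was thus below the other progenitors while both genes' promoters were at 79.8 or higher in MEP.

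Peaks in the span of S100a11 numbered 10 and 8 in MEP, 10 in both LSK libraries, 7 and 10 in CMP, 9 in both of GMP, 12 in both of CFUMK, 13 and 11 in iMK, 9 and 11 in MON and 8 in both of NEU. CFUE had 1 and 2, ERY 1 in each and the lines 0. Per 100000 peaks these were 8.42 ± 1.50 in NEU, 6.96 ± 2.07 in MON and 5.51 ± 0.74 in MEP (SD, n = 2). In the span of S100a10, CFUE had 7 peaks in replicate 1 and 0 in replicate 2 and ERY 5 in both, against 14 and 11 in MON, 12 in both of NEU and 16 and 14 in MEP.

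The difference between innate and erythroid cells was then tested with limma on log2 of peak numbers per 100000, with all 17023 genes that had enough peaks and adjustment by Benjamini-Hochberg over all of them. Innate means MON and NEU, and erythroid CFUE and ERY. All 10 members were tested, 5 were higher in innate cells and none lower. In the genome 14.4% of genes were higher and 26.0% lower, and the median log2 difference of the members was 0.38 against -0.19 over all genes. The largest difference was that of S100a11, at 2.04 (SE 0.267, limma adjusted p = 5.47e-08), followed by S100a8 at 1.83 (SE 0.264, adjusted p = 4.28e-07) and S100a10 at 1.56 (SE 0.324, adjusted p = 0.000408). In peaks per 100000, S100a8 was at 7.10 ± 3.75 in innate and 1.16 ± 0.48 in erythroid libraries, and S100a11 at 7.69 ± 1.70 and 1.18 ± 0.57 (SD, n = 4 each). S100a9 differed by 0.90 (SE 0.267, adjusted p = 0.00684) and S100a5 by 0.69 (SE 0.239, adjusted p = 0.0200).

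The remaining 5 members did not pass. Their log2 differences were -0.34 for S100a1 (limma adjusted p = 0.207), -0.40 for S100a13 (0.171), -0.02 for S100a3 (0.947), 0.08 for S100a4 (0.804) and 0.05 for S100a6 (0.875). Lists of equal length drop the weak erythroid peaks described above. With them S100a3 and S100a4 were both 2.71 higher (limma adjusted p = 7.02e-13) in innate cells on the log2 scale, and S100a6 2.03 higher (adjusted p = 1.28e-08). The S100a3 and S100a4 values are not separate results, as their peak numbers were then the same in every library. S100a13 was called in the other direction there, at -0.42 (limma adjusted p = 0.0431). With reproducible peaks alone S100a1, at -0.36 (adjusted p = 0.00242), and S100a13, at -0.52 (adjusted p = 0.000205), were lower in innate cells and the other 8 members higher. S100a9 and S100a5 were no longer called without CFUE replicate 2, which left 3 members. S100a5 was also lost without ERY replicate 2, without MON replicate 1 and when only the groups compared were fitted (adjusted p = 0.061), with adjusted p up to 0.114 over its alternatives. Innate cells came from blood and erythroid cells from marrow, and their library numbers lie far apart, so cell type, tissue and handling cannot be told apart.

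NEU and MON were called different at the calprotectin pair, although not under every setting. S100a8 was higher in NEU by 1.19 on the log2 scale (SE 0.373, limma adjusted p = 0.0338) and S100a9 by 1.16 (SE 0.378, adjusted p = 0.0415), and the other 8 members were not called. In the genome 7.80% of genes were higher in NEU. The median of the members was 0.28, beside 0.26 over all genes. S100a10 differed by 0.57 (adjusted p = 0.436) and S100a11 by 0.33 (adjusted p = 0.592). Both calls were lost without MON replicate 1, without MON replicate 2 or without NEU replicate 2. That of S100a9 was also lost without CFUMK replicate 1, CFUMK replicate 2 or iMK replicate 1. With a prior of 0.5 peak, without scaling to list length or with only the groups compared, neither S100a8 nor S100a9 was called. Before scaling, the span of S100a9 had 11 and 14 peaks in NEU and 11 and 6 in MON, whose lists were longer. All 12 B cell marker promoters were called in NEU against 7 and 6 in MON, and their part in the difference was not tested.

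Between the mature innate cells and their progenitor GMP, S100a1 alone was called, higher by 0.72 on the log2 scale (SE 0.259, limma adjusted p = 0.0394), in a contrast with 14.6% of genes higher. That call was lost without GMP replicate 1, GMP replicate 2, MON replicate 1 or NEU replicate 2, each leaving 0 members. Without CFUE replicate 1 or CFUE replicate 2 the contrast had 2 members, S100a10 joining. Before scaling to list length, the span of S100a1 had 9 and 7 peaks in GMP, 12 and 7 in MON and 6 and 7 in NEU. Without that scaling its difference was -0.03. The S100a1 promoter itself ranked higher in GMP, at 8956 and 7804, than in MON and NEU, as given above. S100a8 was not called, with 7.10 ± 3.75 peaks per 100000 in innate libraries (SD, n = 4) and 6.87 ± 1.75 in GMP (SD, n = 2).

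No member was called between GMP and MEP by limma, with 3 at an unadjusted p under 0.05 and 10.4% of genes called in either direction. These were S100a8, higher in GMP by 1.00 on the log2 scale (adjusted p = 0.0759), and S100a1 and S100a13, at -0.72 and -0.67. In peak strength, GMP had percentiles of 93.0 and 92.3 at the S100a8 promoter against 12.9 and none in MEP. Between iMK and CFUMK limma called none, with 0 at an unadjusted p under 0.05, a smallest adjusted p of 0.886 and 1.07% of genes called. Between G1E-ER4+E2 and G1E it called none, with 5 at an unadjusted p under 0.05 (S100a1, S100a3, S100a4, S100a5 and S100a6), a smallest adjusted p of 0.0966 and 10.8% of genes called. In the lines 8 of the members had 0 or 1 peak in each library, so that a difference was hardly detectable. S100a1 had 6 and 4 peaks in G1E and 11 and 10 in G1E-ER4+E2.

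**Figure D4:**
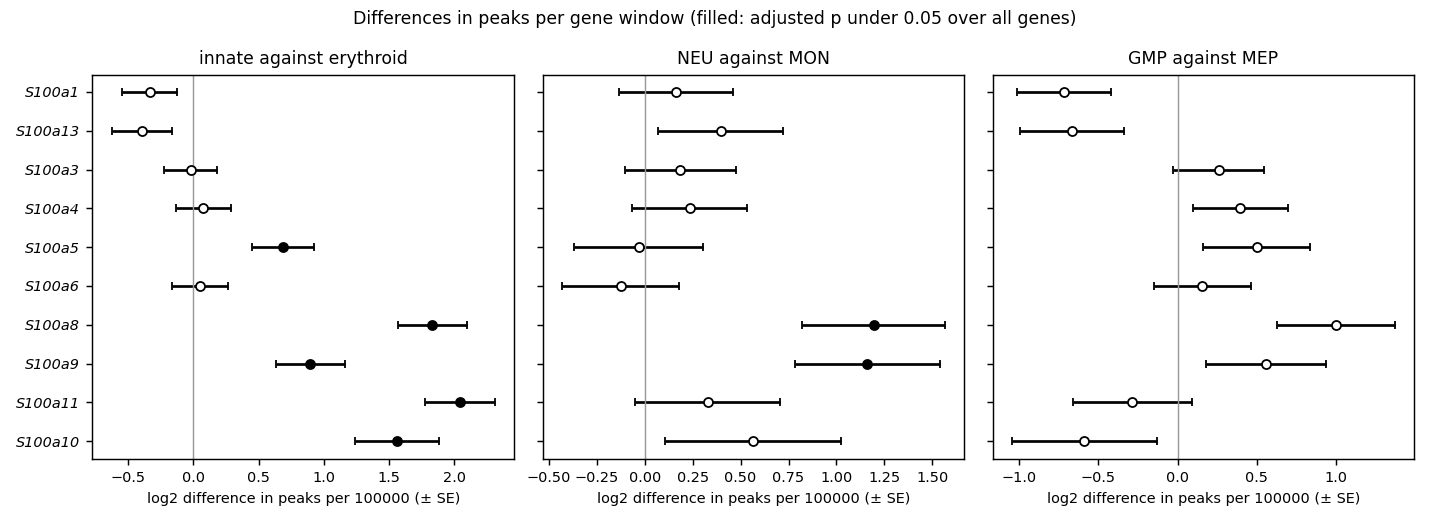
Points give the log2 difference in peaks per 100000 for each member and bars 1 SE from limma, in 3 panels for innate against erythroid cells, NEU against MON, and GMP against MEP, with filled points for adjusted p under 0.05. S100a11, S100a8, S100a10, S100a9 and S100a5 are filled in the first panel, S100a8 and S100a9 in the second and none in the third.

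Promoter calls gave a related view of GMP and iMK. S100a9 and S100a11 had a promoter in all 4 GMP and iMK libraries and in no CFUE or ERY library, a pattern of 6.89% of genes. With lists of equal length 6 members had it, S100a3, S100a6, S100a8, S100a9, S100a10 and S100a11, and 6.36% of genes. The other members lack it because weak peaks were called at their promoters in CFUE or ERY, because the promoter is open everywhere (S100a1 and S100a13), or because it was called in few libraries (S100a5).

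Motif letters differed between the windows in content. CEBP letters were in 7 of 18 elements of the S100a8 and S100a9 window (38.9%) and in 1 of 23 of the S100a11 and S100a10 window (4.3%), with 14.8% of all elements genome-wide. AP-1 letters went the other way, in 1 of 18 (5.6%) and 8 of 23 (34.8%), with 11.4% genome-wide. KLF/SP letters were in 36 of all 78 elements (46.2%, against 33.1%), RUNX letters in 32 (41.0% against 28.7%), PU.1 letters in 18 (23.1% against 19.4%) and GATA letters in 14 (17.9% against 27.8%). CTCF letters were in 8 (10.3% against 7.4%). Elements of the windows had a median width of 262 bp and those of the genome 250 bp, which bears on how often letters occur.

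By population, the 30 elements of MON or NEU without CFUE or ERY held PU.1 letters in 9 (30.0%, with 29.4% of elements of that pattern genome-wide), RUNX letters in 15 (50.0% against 32.9%), AP-1 letters in 9 (30.0% against 14.6%) and CEBP letters in 3 (10.0% against 18.2%). The 6 elements of CFUE or ERY without MON or NEU held GATA letters in 0, where 37.4% of elements of that pattern genome-wide held them. These are shares of few elements, without a test, and neighbouring elements are not independent.

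The genes around S100 biology were read from lists of partners, regulators and relatives. Of 22 tested genes for partners and receptors, 6 were higher and 4 lower in innate than in erythroid cells (median log2 difference 0.01). TLR4 and FPR1 sit on phagocytes, and Tlr4 was higher by 2.53 (limma adjusted p = 1.27e-10) and Fpr1 by 2.64 (adjusted p = 2.38e-10). Anxa1, the partner of S100a11, was higher by 1.48 (adjusted p = 1.47e-06) and Ahnak, a large scaffold protein bound by S100a10 and annexin A2, by 1.00 (adjusted p = 1.79e-05). The lowest p-values in the other direction were those of Cd36, a fatty acid receptor, at -0.89 (adjusted p = 0.000712), Bsg, a receptor of S100a9, at -0.94 (0.00176), Plg, plasminogen, at -0.76 (0.0024), and Ppp5c, a phosphatase, at -0.59 (0.0101).

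Of the 12 regulators of S100a8 and S100a9, 6 were higher and 1 lower in innate cells (median 0.97). Those of lowest p were Klf4, a monocyte factor, at 3.32 (limma adjusted p = 1.76e-12), Tlr2 at 1.79 (7.36e-07), Irf8 at 1.78 (1.22e-06) and Cebpd at 1.57 (3.88e-06), and Myb, a progenitor factor, was lower at -0.58 (0.0171). In NEU against MON, 4 regulators were higher and none lower: Myb at 1.06, Cebpb at 1.03, Spi1, the gene of PU.1, at 0.89 and Rara at 0.74 on the log2 scale. Of partners, Anxa11, Anxa1 and Anxa6 were higher in that contrast and Plg and Cd36 lower.

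Of 6 tested genes on the list of relatives outside the members, 2 were lower in innate cells and none higher, where 26.0% of all genes were lower. They were S100z at -1.03 (limma adjusted p = 0.00173) and S100pbp at -0.51 (0.0341). S100pbp encodes a binding protein of S100P and is not itself an S100 gene. Between GMP and MEP the called genes of these lists were Gfi1, a transcriptional repressor that acts within the granulocyte lineage, at 1.26 (limma adjusted p = 0.0135), Anxa6 at 1.11 and Il1a at 0.97. In G1E-ER4+E2 against G1E, Anxa11 (-1.82), Anxa2 (-1.53), Gfi1 (-1.55), Stat3 (-1.15), S100z (-2.33) and S100b (-1.05) were lower, and Il1a (1.16) and Myh9 (0.91) higher. Innate against GMP had Ager, the receptor RAGE, at 0.89 (adjusted p = 0.0147), and iMK against CFUMK had none of these 3 lists called by limma.

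Genes elsewhere with the most similar pattern were found by Pearson correlation of the 12 population means of log2 peak number, as a description without a test. Among the nearest to S100a8 were Nlrp1b (r = 0.969), Il1rn, the interleukin 1 receptor antagonist (0.968), Chd7 (0.964) and P2ry13 (0.963). Nearest S100a9 were Bcar3 (0.934), Btnl2 (0.928), Krt80 (0.926), H2-Eb2 (0.924) and Cd5 (0.922). The points of each correlation share the libraries and their depth.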

How the data were processed

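ATAC-seq libraries of 12 mouse blood cell populations, 2 each, were used as deposited peak lists. The authors trimmed reads to their first bases, mapped them to mm10 with Bowtie (version 0.12.8 and SAMtools version 1.6 per the submitters' processing notes), removed mitochondrial and unplaced reads, and called peaks with HOMER in each library on its own. Each deposited list gives peaks of at most 150 bp with a score of no stated unit, and reads that map to several places may be kept. The lists hold no read numbers, and the read depth the study gives for each library was not used here, so no counting interval is given.

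The members and gene lists were chosen with earlier results of these data known. Groups came from the labels. Peaks were counted in each GENCODE vM21 gene with 20 kb on each side. log2 of peaks plus 1 per 100000 called peaks was fitted with limma 3.58.1 (R 4.3.3, trend and robust, 24 libraries, 12 group means) over the 17023 genes averaging 3 or more peaks, with Benjamini-Hochberg adjustment and a two-sided threshold of 0.05 on the adjusted p. Elements are merged overlaps, of at least 1 bp, of peaks of both libraries of a population. The fit was tested on simulated data. Named from the other lists were the up to 4 genes of lowest adjusted p in each direction and 5 like genes, on another chromosome or over 5 Mb away. Some genes that these rules pick are not reported here. Pla2g2a and S100a7l2 were not matched. Alternatives were another prior, no filter, 5 kb, no scaling, lists of equal length (52720 top peaks), reproducible peaks, a larger overlap, fitting only the compared groups, and leaving out each library. A block for the run of library numbers was added after seeing the data.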

Additional observations from a re-analysis of the deposited data

How the results depend on the processing

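The calls of S100a8 (29 alternatives), S100a10 (31) and S100a11 (31) between innate and erythroid cells kept their direction and threshold in every alternative run. Members called between innate and erythroid cells, 5 as reported, were 8 with lists of equal length (7 higher, and S100a13 lower) and 10 with reproducible peaks alone (8 higher, and S100a1 and S100a13 lower), and 3 to 5 when a library was left out. S100a3 turned there from -0.02 to 2.71 with lists of equal length and 0.65 with reproducible peaks. With lists of equal length S100a3 and S100a4 had the same peak numbers in every library, so their calls are not separate results. For GMP against MEP (0) the numbers were 1 with 5 kb on each side, 1 without scaling, 1 with only the groups compared, 4 with lists of equal length (S100a11 at 1.29 on the log2 scale, where the reported value was lower in GMP) and 7 with reproducible peaks. For innate cells against GMP (1) they were 0 with a prior of 0.5 peak, with lists of equal length or with only the groups compared, 7 with reproducible peaks, and 0 to 2 without a library, and without scaling S100a1 was at -0.03 and S100a6 at -0.69. For NEU against MON (2) they were 0 with a prior of 0.5 peak, with 5 kb, without scaling or with only the groups compared, 1 without the filter, 4 with reproducible peaks, and 0 to 2 without a library. Reproducible peaks gave 3 for iMK against CFUMK (0). G1E-ER4+E2 against G1E (0) gave 4 with a prior of 0.5 peak, 4 without scaling, 2 with lists of equal length and 7 with reproducible peaks. Elements numbered 125 with a call in either replicate and 48 with 5 kb (78 as reported). With 5 kb, those of MON or NEU without CFUE or ERY were 19 (30). Those of CFUE or ERY without MON or NEU (6) were 26 with a call in either replicate, 1 with lists of equal length, 3 with 5 kb, and 4 to 19 when a library was left out, the lone library's peaks then all counting. Reproducible peaks make replicates alike by construction; other causes were not tested. A population left with 1 library is assumed to vary like the others. At 5 kb S100a8 and S100a9, and with lists of equal length S100a8, had too few peaks to be tested. The labels give no replicate numbers that groups share, but 7 marrow populations have 1 library each in the number runs 842 to 848 and 850 to 856. With this run as a replicate block, chosen after seeing the data, 0 members were called for GMP against MEP and 0 for iMK against CFUMK. Between-run differences correlated across genes at -0.175 to 0.253 over the 21 pairs of these populations, 6 of them above 0.1, so the run was not taken to pair the libraries, and MON and NEU had no library in either.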

Other observations

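The windows also hold parts of neighbouring genes. An element at the start of S100a14, a relative expressed in epithelia, 12.3 kb downstream of the S100a13 start, had score percentiles of 90.4 and 88.8 in MEP, 74.8 and 69.8 in CFUE, 71.5 and 81.4 in CFUMK and 57.6 in iMK replicate 2, and no peak in any other library. It was called in MEP, CFUE and CFUMK, and among the 78 elements it was the only one with exactly these populations. An element 5.8 kb upstream of S100a10 was called in MON alone, at 39.0 and 39.2.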
